A study of Mus musculus with 4 samples.

Results

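The transcription factors that hold mouse embryonic stem cells in the naive state were examined in cells depleted of Brg1. The 10 factors were Nanog, Klf2, Klf4, Klf5, Tfcp2l1, Esrrb, Tbx3, Zfp42, Nr0b1 and Nr5a2, and every probe set that the platform annotation assigns to one of these symbols was taken. The list itself was drawn up with earlier results of these data known, which limits every comparison of its counts with those of all genes. They accounted for 19 of the 22690 probe sets and 10 of the 12393 genes on the array. There were 4 Affymetrix arrays: 2 of R1 mouse embryonic stem cells (an established line) infected with a lentivirus whose short hairpin RNA (shRNA) targets Brg1, and 2 of the same cells infected with an shRNA against the glucose transporter GLUT4 as the control. All cells were harvested 67 h after infection, and nothing in the labels says whether the 2 arrays of a group came from separate cultures, so that the p-values measure only the spread between these arrays. Brg1, encoded by Smarca4, is a catalytic subunit of the nucleosome-moving SWI/SNF complexes, and the study asks how these complexes control genes in embryonic stem cells.

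Naive pluripotency is the state of the early epiblast and of mouse embryonic stem cells grown with the cytokine LIF. LIF activates STAT3, which drives Klf4 and Tfcp2l1, while beta-catenin relieves repression by Tcf7l1 and so favours Esrrb, Tfcp2l1 and Klf2, and ERK signalling works against the network. The factors bind many of the same enhancers together with the core factors Oct4 (Pou5f1) and Sox2, activate one another, and are switched off as cells move to the formative and primed epiblast states. Several also act elsewhere, Klf4, Klf5, Tbx3 and Nr5a2 among them in epithelia and endoderm.

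On the deposited scale, Smarca4 had 652.1 and 621.5 signal units on the knockdown arrays, against 1187 and 1214 on the control arrays (log2 difference -0.89 ± 0.08 SE; limma, adjusted p = 0.000232), and Slc2a4, the control target, was too dim to test. Of the embryonic stem cell markers, all 7 of the list (Pou5f1, Sox2, Utf1, Tdgf1, Lin28a, Sall4, Dppa5a) were above the filter, with summed signals of 15975 to 16565 in the knockdown and 16686 to 17042 in the control. Trimmed mean signals were near 200.1 on every array, and no counts or depths exist for arrays, whose number limits the precision. In bulk RNA, fewer cells of a type and less RNA per cell cannot be told apart.

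Of the 10 factors, 9 were bright enough to test, and Tbx3 was not. After Brg1 knockdown 7 of the 9 rose (limma, adjusted p under 0.05), 0 fell and 2 did not pass, where 9.33% of all 7815 tested genes rose and 5.09% fell. At an unadjusted p under 0.05, 9 were higher and 0 lower. That cutoff was passed by at least 2400 of the 7815 tested genes, counting both directions (Zfp281, ranked 2400 by p, had 0.0472; limma). The same background applies to the counts at this cutoff for the lists below. Their counts of genes that rose or fell are to be read beside the 9.33% and 5.09% of all tested genes. In all 9 both knockdown arrays lay above both control arrays, which was so for 34.3% of the tested genes, while 25.9% had both knockdown arrays below. The log2 differences of the 9 ran between 0.25 and 0.88, with a median of 0.57, beside a median of 0.04 over all tested genes. No factor reached a 2-fold difference. All fold changes here are on the scale of log2(signal + 20), where the 20 signal units added before the logarithm understate the change of dim genes. The tested factors were well above the filter level of 23.9 signal units, the lowest single value being 131.3.

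**Figure D1:**
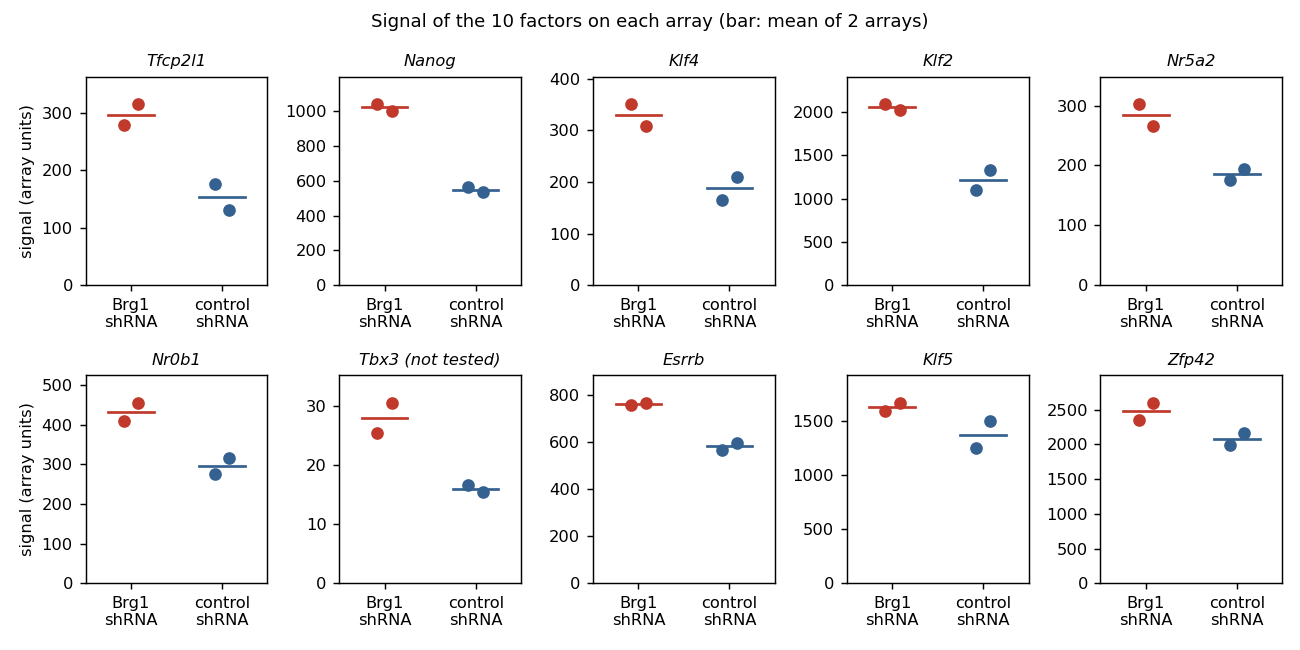
Signal of each of the 10 factors on each array, in linear array units from 0, with the Brg1 shRNA arrays at the left and the control shRNA arrays at the right of each panel; points are arrays and bars the mean of 2. Nanog sits at 1040 and 1003 in the knockdown and at 564.7 and 533.6 in the control, whereas Klf5 and Zfp42 differ by less.

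**Figure D2:**
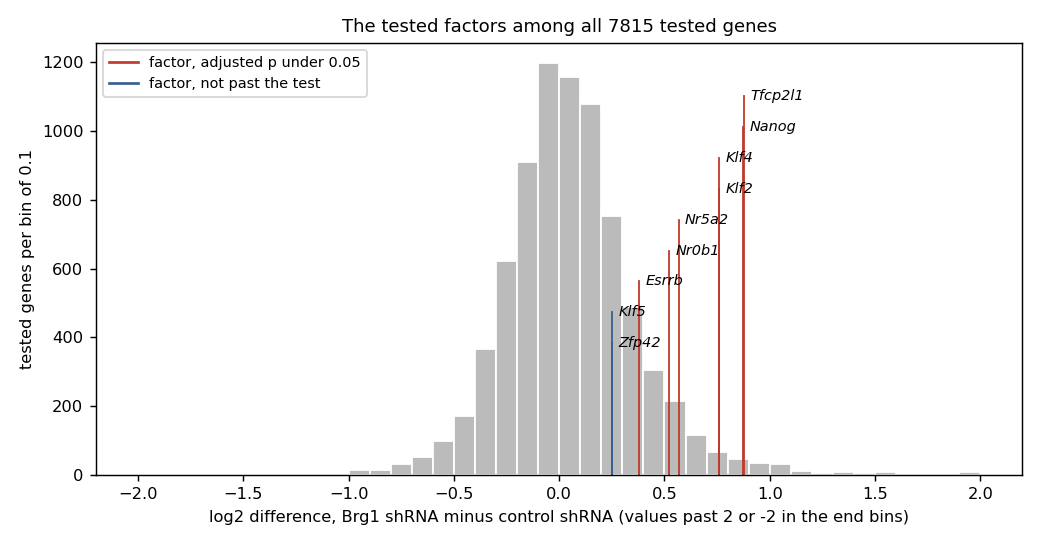
Histogram of the log2 differences (Brg1 shRNA minus control shRNA) of all 7815 tested genes in bins of 0.1, with lines at the 9 tested factors, red where the adjusted p was under 0.05. All 9 lie to the right of 0, from 0.25 for Klf5 and Zfp42 to 0.88 for Tfcp2l1.

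The proximal promoters of Nanog and Tfcp2l1, which rose most, and of Zfp42, which did not pass the test, are shown because all 3 hold known motifs of the network. RefSeq (GRCm38.p6) gave 11 windows for 8 of the factors, and Klf5 and Tbx3 had none. The 250 bases before the annotated start were searched on both strands for CATTGT and ATGCAAA with 1 base between them (the composite site of Sox2 and Oct4), ATGCAAAT (the octamer of Oct4), GGGNGTGG (KLF), CAAGGTCA (Esrrb and Nr5a2) and TTCNNNGAA (STAT). Matches are in capitals in the sequences below, which run 5′ to 3′ on the gene's strand.
Nanog, chr6:122707315-122707564, plus strand: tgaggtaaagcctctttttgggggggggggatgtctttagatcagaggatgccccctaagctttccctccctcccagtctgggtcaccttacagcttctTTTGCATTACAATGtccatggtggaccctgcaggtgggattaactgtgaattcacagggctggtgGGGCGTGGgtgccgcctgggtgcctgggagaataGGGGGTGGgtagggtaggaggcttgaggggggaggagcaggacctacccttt
Tfcp2l1, chr1:118627695-118627944, plus strand: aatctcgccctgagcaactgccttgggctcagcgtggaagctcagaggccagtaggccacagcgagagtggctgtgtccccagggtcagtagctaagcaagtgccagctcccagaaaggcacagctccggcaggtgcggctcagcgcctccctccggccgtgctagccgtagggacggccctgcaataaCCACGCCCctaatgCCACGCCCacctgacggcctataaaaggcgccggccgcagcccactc
Zfp42, chr8:43307010-43307259, minus strand: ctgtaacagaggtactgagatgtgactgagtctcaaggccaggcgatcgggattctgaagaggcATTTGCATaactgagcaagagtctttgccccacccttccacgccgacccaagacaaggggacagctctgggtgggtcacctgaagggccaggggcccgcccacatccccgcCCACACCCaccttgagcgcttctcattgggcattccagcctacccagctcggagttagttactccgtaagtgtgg
In the Nanog window the composite site lies 151 to 138 bases before the start, and 2 KLF motifs follow it. The composite was found in 2 of all 32851 promoter windows (0.00609%), and both are overlapping windows of Nanog. Tfcp2l1 carries 2 KLF motifs on the opposite strand, at 61 to 54 and 47 to 40 bases before the start. Zfp42 holds the octamer 186 to 179 bases before the start, a motif present in 1.60% of all windows, and 1 KLF motif. The KLF motif was present in 5 of the 11 windows and in 15.9% of all windows. Of these 5, 2 are the overlapping Nanog windows, so that 4 of the 8 factors with a window held the motif. The STAT motif was in 1 window (of Esrrb) and 7.02% of all, and CAAGGTCA in none of the 11 and 1.33% of all. The windows of Klf2, Klf4 and Nr0b1 held none of these motifs. These matches describe letters, not occupied sites.

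Nanog, the homeodomain factor that lets cells self-renew with less LIF, had one of the largest rises among the factors. Its signal was 1040 and 1003 on the knockdown arrays, against 564.7 and 533.6 on the control arrays. The groups were far apart relative to the gap within each, and the log2 difference was 0.87 with a 95% interval of 0.69 to 1.06, a 1.83-fold rise (limma, adjusted p = 0.000299). Only 1.52% of the tested genes had a larger rise. Nanog has 1 probe set on this array. The tested genes outside the 10 whose 4 log2 values, centred on their mean, lay closest to those of Nanog were Rbpj (Euclidean distance 0.05), the nuclear effector of Notch signalling, Lama3 (0.06), a laminin chain, and Plk2 (0.07), a kinase of the polo family. Rbpj and Plk2 had log2 differences of 0.88 and 0.86. Lama3 had 51.5 and 49.9 signal units in the knockdown and 19.6 and 15.7, below the filter level, in the control, so its closeness to Nanog (0.91) depends on the units added before the logarithm: with 10 units added, not 20, the difference was 1.14 for Lama3 and 0.88 for Nanog.

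Among the 3 Krüppel-like zinc finger factors, Klf2 and Klf4 rose and Klf5 did not pass the test. Klf2, whose protein is destabilised by ERK signalling, had 2093 and 2031 signal units in the knockdown, against 1104 and 1328 in the control. The log2 difference came to 0.76 (0.55 to 0.97; limma, adjusted p = 0.000972), and the spread was wider within the control than within the knockdown. Klf4, a STAT3 target and one of the factors used to reprogram fibroblasts, had 350.8 and 308.5 in the knockdown, against 164.6 and 210.3 in the control. Its log2 difference was 0.76 (0.47 to 1.05; limma, adjusted p = 0.00554). A second Klf4 probe set gave 208.2 and 182.7 in the knockdown and 96.5 and 109 in the control, a log2 difference of 0.81 (0.52 to 1.10), with an adjusted p of 0.00794 in the fit over single probe sets. The 2 Klf4 probe sets therefore moved alike, with a difference between them of -0.052 (-0.40 to 0.29).

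Klf5, which supports self-renewal and is also required in trophectoderm, had 1593 and 1666 signal units in the knockdown, against 1249 and 1493 in the control. The arrays did not overlap, but the control arrays were farther apart from each other than the nearest knockdown and control arrays were. The log2 difference of 0.25 (0.04 to 0.46) missed the threshold (limma, adjusted p = 0.0983). It passed without control replicate 2 (0.38) and with the spike-in scaling (0.58; limma, adjusted p = 0.031). A dimmer second probe set pointed the other way, with 79.2 and 69.9 in the knockdown and 90.8 and 79 in the control (-0.15, -0.47 to 0.17; adjusted p = 0.529). The difference between the 2 Klf5 probe sets was 0.40 (-0.05 to 0.85) and did not pass (limma, adjusted p = 0.495). Of the 11 other KLF genes on the array 7 were tested, 2 rose and 0 fell (4 higher and 1 lower at an unadjusted p under 0.05). Klf6 rose by 0.63 ± 0.11 (SE) and Klf9 by 0.43 ± 0.08 (adjusted p = 0.00685 and 0.00812), whereas Klf13 gave 0.72 ± 0.22 (adjusted p = 0.0544). The knockdown arrays of Klf13 were far apart, at 233.3 and 432.5, against 197.7 and 173.7 in the control, and its difference was 1.14 without knockdown replicate 1 (adjusted p = 5.00e-05), 0.30 without knockdown replicate 2 and 0.81 without control replicate 1 (0.0209). Klf13 also passed with median centring (0.0448), the spike-in scaling (0.000193), the replicate block (0.00997) and the crossed block (0.00778). Klf6 lost its call with the mean of all its probe sets (0.34, adjusted p = 0.0813).

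Tfcp2l1, a factor of the grainyhead-related CP2 family that acts downstream of LIF, rose by about as much as Nanog. Its signal was 279.3 and 315.3 on the knockdown arrays, against 176.7 and 131.3 on the control arrays. The log2 difference was 0.88 (0.56 to 1.19), a 1.84-fold rise (limma, adjusted p = 0.00399). The arrays of both groups were more scattered than for Nanog, and leaving out single arrays gave 0.69 to 1.07. Its other 2 probe sets were near the lowest signals of the array, between 0.8 and 16.1 on all 4 arrays, and were not tested. Averaging them in, as the mean of all probe sets does, lowered the difference to 0.18 (adjusted p = 0.453). Its relatives in the same family did not pass the test, at -0.30 for Tfcp2 (adjusted p = 0.197) and 0.05 for Ubp1 (0.753).

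The nuclear receptors Esrrb, Nr5a2 and Nr0b1 rose by less than Nanog. Nr5a2 (Lrh1), which binds the Oct4 regulatory regions and can take the place of Oct4 in reprogramming, had 302.2 and 265.6 signal units in the knockdown, against 176.3 and 193.7 in the control. The log2 difference was 0.57 (0.31 to 0.82; limma, adjusted p = 0.0107). A second probe set gave 255.6 and 245.4 against 156.9 and 137.1, a difference of 0.70 (0.43 to 0.96; adjusted p = 0.00992). Another had 79.1 and 92.6 in the knockdown and 62.1 and 42.3 in the control (0.56, 0.17 to 0.96; adjusted p = 0.0769), and the last was too dim to test. All 3 tested Nr5a2 probe sets had both knockdown arrays on top, as did 34.3% of all tested genes at their brightest probe set. The 3 were read on the same 4 arrays and so are not separate replicates.

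Nr0b1 (Dax1), an unusual receptor without the classic zinc finger DNA-binding domain that acts as a corepressor and partner of Oct4 and Nr5a2, had 409.7 and 455.7 signal units in the knockdown. The control arrays had 275.1 and 315.5. The log2 difference was 0.52 (0.28 to 0.76; limma, adjusted p = 0.0119). The call was lost without knockdown replicate 2 (0.45, adjusted p = 0.0504).

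Esrrb, an orphan receptor that can replace Nanog in supporting self-renewal rose least of the 3 receptors. The main probe set had 759 and 767.6 in the knockdown, against 567.6 and 595.4 in the control, and the log2 difference came to 0.38 (0.20 to 0.57; limma, adjusted p = 0.016). Leaving out knockdown replicate 2 ended the call (adjusted p = 0.0564), as did leaving out control replicate 1 (0.0526). So did a fit without the intensity trend of the variance model (0.058) and the mean of both probe sets (0.17, adjusted p = 0.234). The second Esrrb probe set had 136.4 and 133.4 in the knockdown and 136.6 and 142.6 in the control, a difference of -0.04 (-0.31 to 0.23; adjusted p = 0.844). The difference between the 2 Esrrb probe sets was 0.42 (0.10 to 0.75). With adjustment over the 4711 such pairs of the array it did not pass (limma, adjusted p = 0.4), and 0 pairs did (0% of them), while 509 had an unadjusted p under 0.05. The paralog Esrra had a log2 difference of 0.13 (adjusted p = 0.636).

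**Figure D3:**
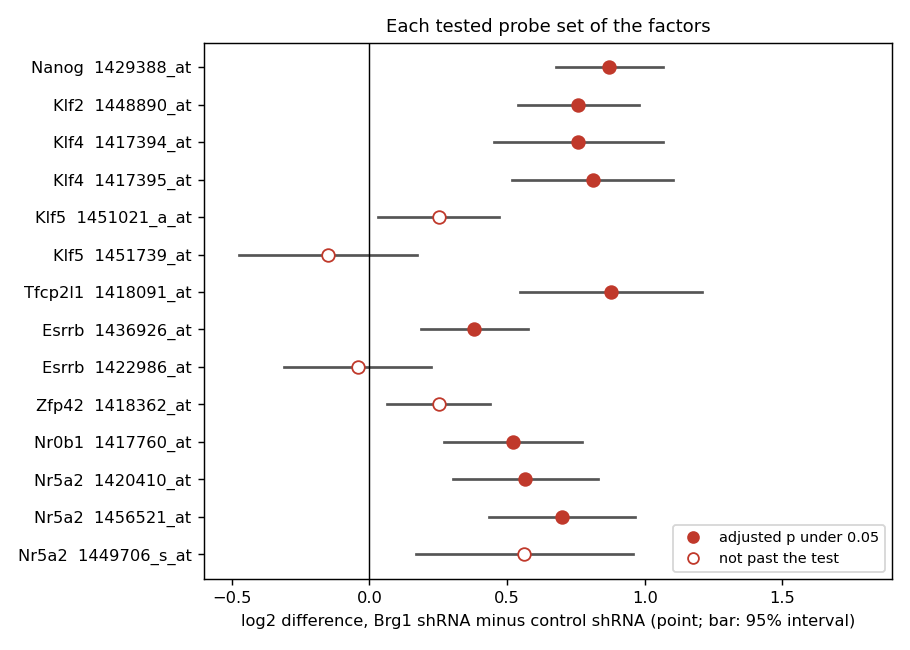
Log2 difference (Brg1 shRNA minus control shRNA) of each of the 14 tested probe sets of the factors, with its 95% interval; filled points had an adjusted p under 0.05 when every probe set was tested by itself. The Klf4 and Nr5a2 probe sets lie on the same side of 0, whereas the second probe sets of Esrrb (-0.04) and Klf5 (-0.15) lie near or below it.

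Over all 19 probe sets of the factors, 14 were tested, 9 rose, 0 fell and 5 did not pass, where 5.76% of the 13576 tested probe sets rose and 3.37% fell.

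Zfp42 (Rex1), a zinc finger gene derived from Yy1 and a common reporter of the naive state, was bright and did not pass the test. It had 2357 and 2602 signal units in the knockdown, against 1993 and 2165 in the control. The groups did not overlap, but the log2 difference of 0.25 (0.08 to 0.43) missed the threshold (limma, adjusted p = 0.0597). Zfp42 passed when knockdown replicate 1 was left out (0.32) and when control replicate 2 was left out (0.31). It also passed with quantile normalization (0.31; limma, adjusted p = 0.0253), the spike-in scaling (0.58, adjusted p = 0.0207) and the replicate block (adjusted p = 0.0402). Tbx3, a T-box repressor downstream of PI3K signalling, was dim, with 25.5 and 30.6 in the knockdown and 16.6 and 15.5 in the control. The log2 difference of 0.41 was not tested, and its second probe set had 1.6 and 6.9 against 13.7 and 0.8. Without the filter Tbx3 gave an adjusted p of 0.209.

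The sizes of the rises were compared with that of Nanog by fitting each gene's log2 value minus Nanog's across all tested genes, of which 94.1% differed from Nanog. Of the 8 other tested factors, 5 rose less than Nanog past this test, a smaller share than over all genes. Nanog had one of the largest rises, so most genes differ from it and passing does not set a factor apart. Every fit also used the same Nanog values. Klf5 and Zfp42 both lay 0.62 below Nanog, with intervals of -0.83 to -0.41 and -0.80 to -0.45 (adjusted p = 2.47e-05 and 3.60e-06). Esrrb lay 0.49 below (-0.72 to -0.27), Nr0b1 0.35 below (-0.63 to -0.07) and Nr5a2 0.31 below (-0.59 to -0.02; adjusted p = 0.0398). Tfcp2l1, Klf4 and Klf2 were not told apart from Nanog, with differences of 0.0047 (-0.30 to 0.31), -0.11 (-0.42 to 0.20) and -0.11 (-0.32 to 0.09).

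The core factors that work with these 10 did not pass the test. Pou5f1 had 2556 and 2418 signal units in the knockdown, against 2367 and 2579 in the control (log2 difference 0.0085, -0.15 to 0.17; adjusted p = 0.95). Sox2 had 1516 and 1272, against 1644 and 1608 (-0.22, -0.43 to -0.02; adjusted p = 0.125). Without knockdown replicate 1, Sox2 fell by 0.35 (adjusted p = 0.0262). Of 20 tested core and other pluripotency genes, 3 rose, 1 fell and 16 did not pass, with a median log2 difference of 0.05. The rises were Ncoa3 (1.05 ± 0.14 SE), a nuclear receptor coactivator that partners Esrrb, Dppa2 (0.71 ± 0.07) and the growth factor Fgf4 (0.52 ± 0.10), and the fall was the RNA-binding protein gene Lin28a (-0.38 ± 0.08; limma, adjusted p = 0.018). Lin28a lost its call without control replicate 1 (-0.29) and with the mean of its probe sets (-0.24; limma, adjusted p = 0.128). It also lost the call without the filter (adjusted p = 0.063) and without the intensity trend (0.0764). Fgf4 lost its call with the mean of its probe sets (adjusted p = 0.0712).

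Among other genes of the naive state, 3 of 8 tested rose, 0 fell and 5 did not pass, with a median of 0.27 (4 higher and 1 lower at an unadjusted p under 0.05). Jam2, an adhesion molecule, had 452 and 471.9 signal units in the knockdown, against 130.6 and 150 in the control, a log2 difference of 1.59 ± 0.11 (SE). That is a larger value than for any of the 10 factors. Fbxo15, an Oct4 and Sox2 target, rose by 0.45 ± 0.09, and Zfp57, which protects imprints, by 0.57 ± 0.16. Neither Fbxo15 nor Zfp57 passed without the filter (limma, adjusted p = 0.052 and 0.129) or without the intensity trend (0.055 and 0.0912). The call of Zfp57 (adjusted p = 0.0416) also ended with quantile normalization (0.0521). It ended as well on leaving out knockdown replicate 1 (log2 difference 0.34) or control replicate 1 (0.43).

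Of 15 tested genes of the formative and primed epiblast, the states that follow the naive one in development, 0 rose and 6 fell. The other 9 did not pass, and the median was -0.25, where 9.33% of all tested genes rose and 5.09% fell. At an unadjusted p under 0.05 (limma), 2 were higher (Etv5 and Grhl2 at 0.25 each) and 6 lower. Otx2, the factor that redirects Oct4 to formative enhancers, had 236.2 and 222.8 signal units in the knockdown, against 449.2 and 439.6 in the control (log2 difference -0.90 ± 0.10 SE). Dnmt3a (-0.73 ± 0.09) and Dnmt3b (-0.63 ± 0.07), the de novo DNA methyltransferases, fell as well. With the spike-in scaling all 3 lost their call (adjusted p = 0.0503 for Otx2, 0.156 for Dnmt3a and 0.25 for Dnmt3b), and Dnmt3a, when its probe sets were averaged, fell by 0.39 (adjusted p = 0.0243). Fgf5, the common marker of the primed state, was too dim to test, with 19.2 and 9.7 in the knockdown and 20.2 and 24.5 in the control.

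**Figure D4:**
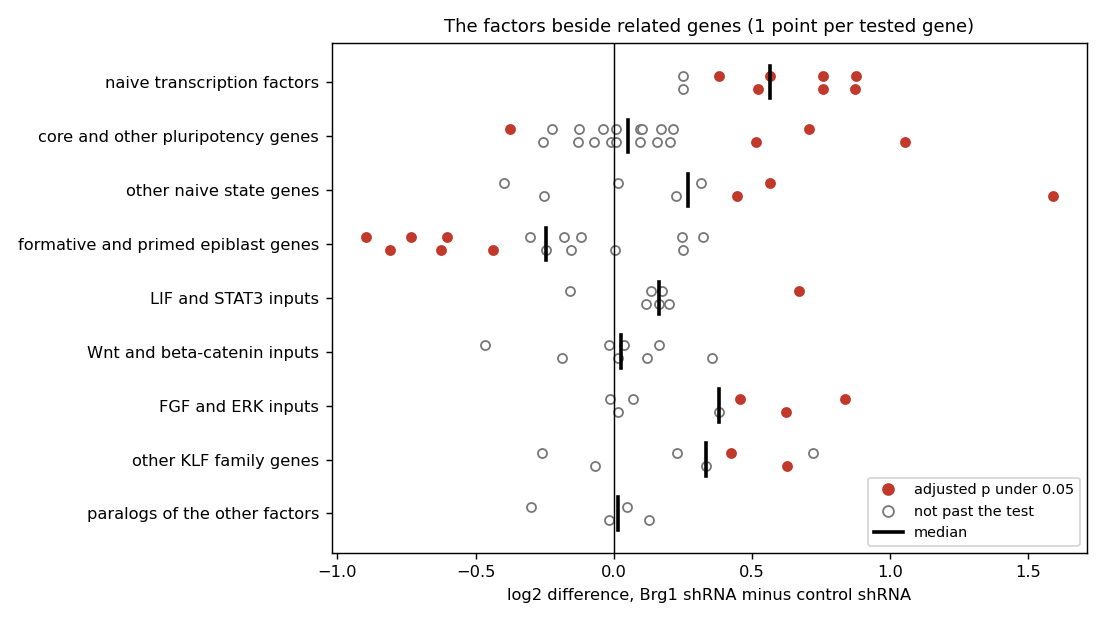
Log2 differences (Brg1 shRNA minus control shRNA) of the tested genes of the factors and of 8 related lists, 1 point per gene, red where the adjusted p was under 0.05, with black bars at the medians. The median is 0.57 for the naive transcription factors, 0.05 for core pluripotency genes and -0.25 for formative and primed epiblast genes.

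Among components of the signals that feed the factors, the counts are set beside the 14.4% of all tested genes that passed in either direction. Of 7 tested LIF and STAT3 inputs, 1 rose, 0 fell and 6 did not pass (median 0.16). The rise was Jak1, the kinase that activates STAT3, with 310.3 and 287.7 signal units in the knockdown and 171.8 and 188.9 in the control (log2 difference 0.67 ± 0.11 SE; limma, adjusted p = 0.0041). Stat3 gave 0.20 ± 0.09 (adjusted p = 0.184) and Gab1, an adaptor, 0.17 ± 0.08 (adjusted p = 0.179). Of 8 Wnt and beta-catenin inputs 0 rose and 0 fell (limma), with 1 higher and 1 lower at an unadjusted p under 0.05. Axin2 had a log2 difference of -0.47 (adjusted p = 0.0697), Gsk3a of 0.36 (adjusted p = 0.0788) and Tcf7l1 of 0.16 (adjusted p = 0.278). Gsk3a passed without knockdown replicate 1 (0.52, adjusted p = 0.0106), with the crossed block (0.0398) and with the spike-in scaling (0.0245), and was 0.19 without knockdown replicate 2. Axin2 passed with median centring (0.0426) and quantile normalization (0.0494), and was -0.20 with the mean of its probe sets. Of 7 FGF and ERK inputs 3 rose, 0 fell and 4 did not pass (median 0.38). They were the ERK phosphatase gene Dusp6 (0.62 ± 0.08) and the receptors Fgfr1 (0.46 ± 0.10) and Fgfr2 (0.84 ± 0.22). For Fgfr2 the call ended on leaving out knockdown replicate 2 (log2 difference 0.47) or control replicate 1 (0.77). For Fgfr1 it ended on leaving out control replicate 1 (0.38). Neither receptor passed without the filter (limma, adjusted p = 0.127 for Fgfr2 and 0.0553 for Fgfr1). The same held without the intensity trend (0.069 and 0.0511). Fgfr1 also did not pass with the mean of its probe sets (0.37, adjusted p = 0.0586). Of the 4 tested paralogs of the factors outside the KLF family 0 rose and 0 fell (limma), and 0 had an unadjusted p under 0.05, with a median log2 difference of 0.02.

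Since Klf4, Klf5, Nr5a2 and Tbx3 are also used outside the epiblast, markers of other cell types were read on the same arrays. Of 9 trophectoderm markers 5 had a mean above the filter and 3 rose, Krt8 (1.04), Tfap2c (0.93) and Hand1 (0.80). Krt18 (0.19; limma, adjusted p = 0.174) and Eomes (0.32, adjusted p = 0.236) did not pass. The summed signal of the list was 1454 to 1561 in the knockdown and 902.1 to 955.1 in the control. Krt8 alone had 690 and 785.1, against 326.1 and 372.2, so much of the higher sum lay in this gene. Gata3 was at 1.2 and 2.2 in the knockdown and 1.8 and 1.2 in the control, and Cdx2, Elf5 and Ascl2 also lay below the filter. Leaving out knockdown replicate 2 (adjusted p = 0.057) or control replicate 1 (0.0596) ended the call of Hand1. Its control values of 18.9 and 21.6 lay below the filter level, so that it was tested through its knockdown values of 43.8 and 57, and its difference was 0.99 with 10 and 0.58 with 40 signal units added. Of 10 primitive endoderm markers 5 were tested, Foxa2 rose (0.94) and Lama1 fell (-0.55), Lamb1 gave -0.24 (adjusted p = 0.297; -0.47 and 0.0365 without knockdown replicate 1), and the sums were 734.9 to 752.8 in the knockdown and 767.2 to 812.9 in the control, with Gata4, Gata6, Sox17, Sox7 and Pdgfra below the filter. Foxa2 likewise passed the filter through its knockdown values of 35.7 and 51.9, against 9.9 and 16.3 in the control, and its difference was 1.22 with 10 and 0.65 with 40 units added. Without the filter, Hand1 (limma, adjusted p = 0.0675), Foxa2 (0.0636), Tfap2c (0.0565) and Lama1 (0.0831) did not pass. The call of Foxa2 ended on leaving out control replicate 1 (adjusted p = 0.0596), and that of Lama1 on leaving out knockdown replicate 1 (0.057) or control replicate 2 (0.1). Of 12 fibroblast markers 3 were tested and Vim rose (1.10), while Thy1 (-0.48, adjusted p = 0.108) and Acta2 (0.33, adjusted p = 0.139) did not pass. Acta2 passed with the spike-in scaling (0.60, adjusted p = 0.0377). The fibroblast sums were 1372 to 1430 in the knockdown and 717.7 to 770.1 in the control. Vim alone had 1153 and 1165, against 504.5 and 556.9, and the other 11 markers summed to 219.7 and 264.9 in the knockdown and to 213.2 on both control arrays. The collagens Col1a1, Col1a2 and Col3a1 lay below the filter level on average. The part of these cell types in the rises of the factors was not tested.

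The direction of the factors did not turn under any scaling tried. The hybridisation spike-ins, transcripts added when the array is hybridised, had mean log2 signals of 9.44 and 9.14 on the knockdown arrays. On the control arrays they were 9.67 and 9.57, so the knockdown arrays differed more from each other than the control arrays did. Scaling to the spike-ins raised the SE of Nanog from 0.08 to 0.22. It also shifted the median over all tested genes to 0.33 on the log2 scale. The factors then stood 0.25 (Klf5) to 0.87 (Nanog) above that median, against 0.22 (Zfp42 and Klf5) to 0.84 (Tfcp2l1 and Nanog) on the deposited scale. Nanog, Klf2 and Klf4 passed the test in all 16 alternatives, with log2 differences of 0.82 to 1.19, 0.63 to 1.08 and 0.60 to 1.06. Nr5a2 and Tfcp2l1 passed in 15, Nr0b1 in 14, Esrrb in 11, Zfp42 in 5 and Klf5 in 2.

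**Figure D5:**
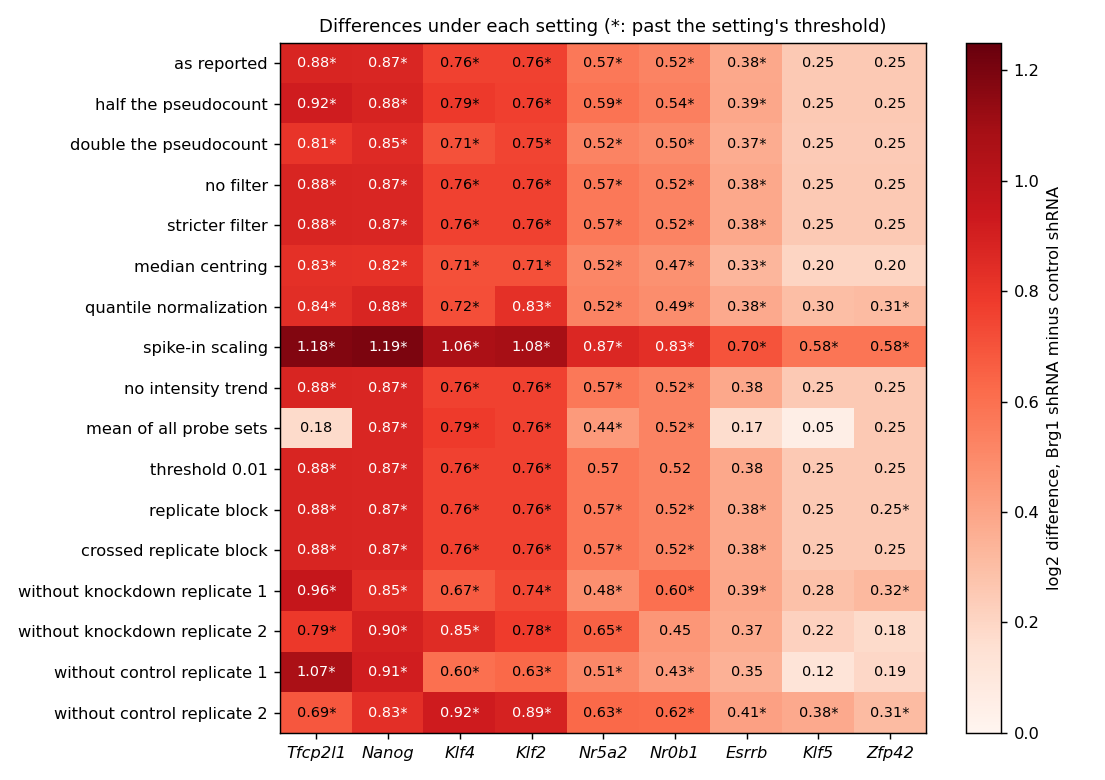
Log2 difference (Brg1 shRNA minus control shRNA) of the 9 tested factors, in columns, as reported and under each of the 16 alternatives, in rows; an asterisk marks values past the threshold of that setting. Every value is above 0, and the lowest is 0.05, for Klf5 with the mean of all probe sets.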

How the data were processed

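The deposited values are 1 linear intensity per probe set and array, produced with the Affymetrix software GCOS per the submitters' processing notes; its version, algorithm and scaling level: not given in the sources used here. The trimmed means (2% off each end) were equal, so the arrays had been scaled before deposit. Of 22690 probe sets, 20380 had 1 gene in the platform annotation, 691 several and 1555 none (64 were controls). For 20351 of the probe sets with 1 gene, the symbol was taken from RefSeq (GRCm38.p6) by Entrez ID, whether or not it changed.

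Values were analysed as log2(intensity + 20), without further normalization. The brightest probe set stood for each gene (_x_at only where no other existed), and genes at or above the 40th percentile of probe sets were tested with limma 3.58.1 (R 4.3.3; intensity trend, two-sided, Benjamini-Hochberg over all tested genes, threshold 0.05). A second fit took every probe set above the filter by itself. Genes named beside the 10 factors are the shRNA targets, Pou5f1, Sox2 and the 3 genes closest to Nanog. Up to 3 tested genes per list, those with the smallest p, were also named (Lin28a through the embryonic stem cell markers). Fgf5, Gata3 and other genes outside this rule were named after their values were seen. The factors and lists were chosen with earlier results of these data known. The deviations of same-numbered arrays from their group means had a correlation of r = -0.14 over 7815 genes. With so few arrays this cannot settle whether the replicate numbers pair arrays. The main fit used no pairing, and a replicate block was fitted as an alternative.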

Additional observations from a re-analysis of the deposited data

How the results depend on the processing

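With 2 arrays per group, 7 factors rose in 6 of the 16 alternatives, and between 4 and 9 in all of them; 0 fell in any. Only the threshold of 0.01 moved that count by over 1.5 times, to 4 factors and 5 probe sets (291 genes higher and 102 lower). Without the filter, 5 probe sets of the factors rose, with 324 genes higher and 109 lower. Over all genes, 598 were lower with median centring, 219 without the intensity trend, and 1413 were higher and 30 lower with the spike-in scaling. Of the called genes 64.7% were higher on the deposited scale, 51.0% with median centring and 97.9% with the spike-in scaling. That last scaling rests on spike-in signals that differed between the knockdown arrays (mean log2 9.44 and 9.14). Leaving out 1 array in turn gave 5 to 9 factors higher, 5 to 9 probe sets higher, 436 to 795 genes higher and 213 to 470 lower, the fewest genes without knockdown replicate 2 and the fewest probe sets without control replicate 1. The replicate block gave 8 factors higher, with 778 genes higher and 409 lower, and Zfp42 was the 1 factor whose call it changed; a crossed block, added after seeing the data, gave 7 factors, 930 genes higher and 548 lower. Falls that lost their call with the spike-in scaling were Otx2 (adjusted p = 0.0503), Dnmt3a (0.156), Dnmt3b (0.25), Lama1 (0.346) and Lin28a (0.868). The sign of Pou5f1, near 0 as reported (0.0085), turned with median centring (-0.042) and with single arrays left out (-0.053 to 0.070). Ubp1 (0.05 as reported) turned with median centring (-0.0017) and with single arrays left out (-0.021 to 0.12). Sox2 and Lamb1 were not near 0 as reported (-0.22 and -0.24). Both turned with the spike-in scaling (0.10 and 0.055), which shifted the median over all tested genes from 0.04 to 0.33. The causes were not tested.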
